A study of Mus musculus with 10 samples.

Results

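The 8 genes described here are the colony-stimulating factor 1 receptor Csf1r, its ligands Csf1 and Il34, the receptor kinase genes Kit and Flt3, and the related cytokine receptor genes Csf2ra, Csf2rb and Csf3r. They were taken by gene symbol from a table of 19782 genes, chosen as the receptor, its ligands, further kinases inhibited by PLX3397 and the receptors for other colony-stimulating factors, and all 8 were found. Expression was measured by RNA sequencing of CD45low CD11b+ cells sorted from the mouse hippocampus as microglia, in 10 libraries made from 1 ng of RNA with the Smart-Seq protocol. Repopulated 5xFAD mice (3 libraries) received PLX3397 at 290 mg/kg in chow from 4 months of age for 1 month and then normal diet for 1 month. Control 5xFAD mice (3 libraries) had the same genotype on normal diet only, and wild-type (WT) mice (4 libraries) were also on normal diet. The 5xFAD line expresses human transgenes with familial Alzheimer's disease mutations in neurons under the mouse Thy1 promoter. The labels give no ages for the control and WT animals, no promoter and no sex. They also do not say whether libraries came from separate animals, so p-values measure only the spread between these libraries, which may be technical.

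CSF1R is the receptor tyrosine kinase on which microglia depend for survival and proliferation in the adult brain. CSF1 and IL-34 both bind it, and in the hippocampus CSF1 is made largely by glia and IL-34 largely by neurons. PLX3397 (pexidartinib) blocks the kinase domain of CSF1R and also inhibits KIT, the stem cell factor receptor, and FLT3, the receptor of FLT3 ligand on dendritic cells and blood progenitors. CSF2RA and CSF2RB form the receptor for GM-CSF, and CSF3R is the receptor for G-CSF on neutrophils and their precursors. These last receptors have no kinase domain and signal through JAK kinases.

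Library totals ran from 18501136 to 23286814 estimated counts. The summed level of 10 microglial marker genes was 40391 to 56343 CPM (counts scaled to library size) in repopulated, 52720 to 56818 CPM in control and 46927 to 59768 CPM in WT libraries. Y-linked transcripts were near absent in 3 libraries, control replicates 1 and 3 and WT replicate 2, and in no repopulated library. Below, called members and pathway genes are therefore also given without these 3 libraries. That leaves 1 control library, which is assumed to vary like the other groups. CPM values compare one gene between libraries, and TPM, which are also scaled by gene length, compare genes with each other.

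By TPM the members spanned a wide range, with overlaps below Csf3r. Csf1r stood at 1571 ± 120 TPM in repopulated, 990 ± 154 TPM in control and 1939 ± 488 TPM in WT libraries (SD, n = 3, 3 and 4). Its rank by TPM among all genes was 58 to 64 in repopulated libraries, 85 to 139 in control libraries and 36 to 63 in WT libraries. Csf3r came next, at 249 ± 42.6 TPM in repopulated, 191 ± 10.8 TPM in control and 243 ± 71.2 TPM in WT libraries. Csf2ra followed at 77.1 ± 20.0, 74.6 ± 12.6 and 58.4 ± 13.8 TPM in the same groups, and Csf2rb at 60.2 ± 1.24, 53.9 ± 4.85 and 68.7 ± 12.1 TPM. The ranges of these 2 chains of the GM-CSF receptor overlapped in WT libraries and not in either 5xFAD group. Csf1 stood below them at 35.7 ± 5.41 TPM in repopulated, 40.2 ± 13.9 TPM in control and 4.15 ± 1.78 TPM in WT libraries. The Csf1 range met that of Csf2rb in control libraries. Flt3 was under 1 TPM in all 10 libraries, and Kit and Il34 were at or near 0.

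Of the 8 members, 6 passed the filter on low counts and were tested in an edgeR quasi-likelihood fit over 12505 genes, with p-values adjusted by Benjamini-Hochberg over all of them and a call at an adjusted p below 0.05. In control 5xFAD against WT libraries, Csf1 and Csf2ra rose and Csf1r fell, so 3 of 6 members were called where 18.1% of all genes tested were. The count was 1, Csf1, without control replicate 1. Without the 3 libraries low in Y-linked transcripts the Csf2ra difference was 0.30 on the log2 scale and its call ended. In repopulated 5xFAD against control libraries 0 of 6 were called, against 0.568% of all genes. At an unadjusted p below 0.05 that count was 1, Csf1r, among 18.5% of all genes. DESeq2 also called 1, Csf1r, with 9.42% called of the 7409 genes left in its adjustment, whereas limma-voom called 0. In repopulated 5xFAD against WT libraries 1 of 6 was called, Csf1, against 4.18% of all genes. The comparisons share libraries and are not independent of one another.

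**Figure D1:**
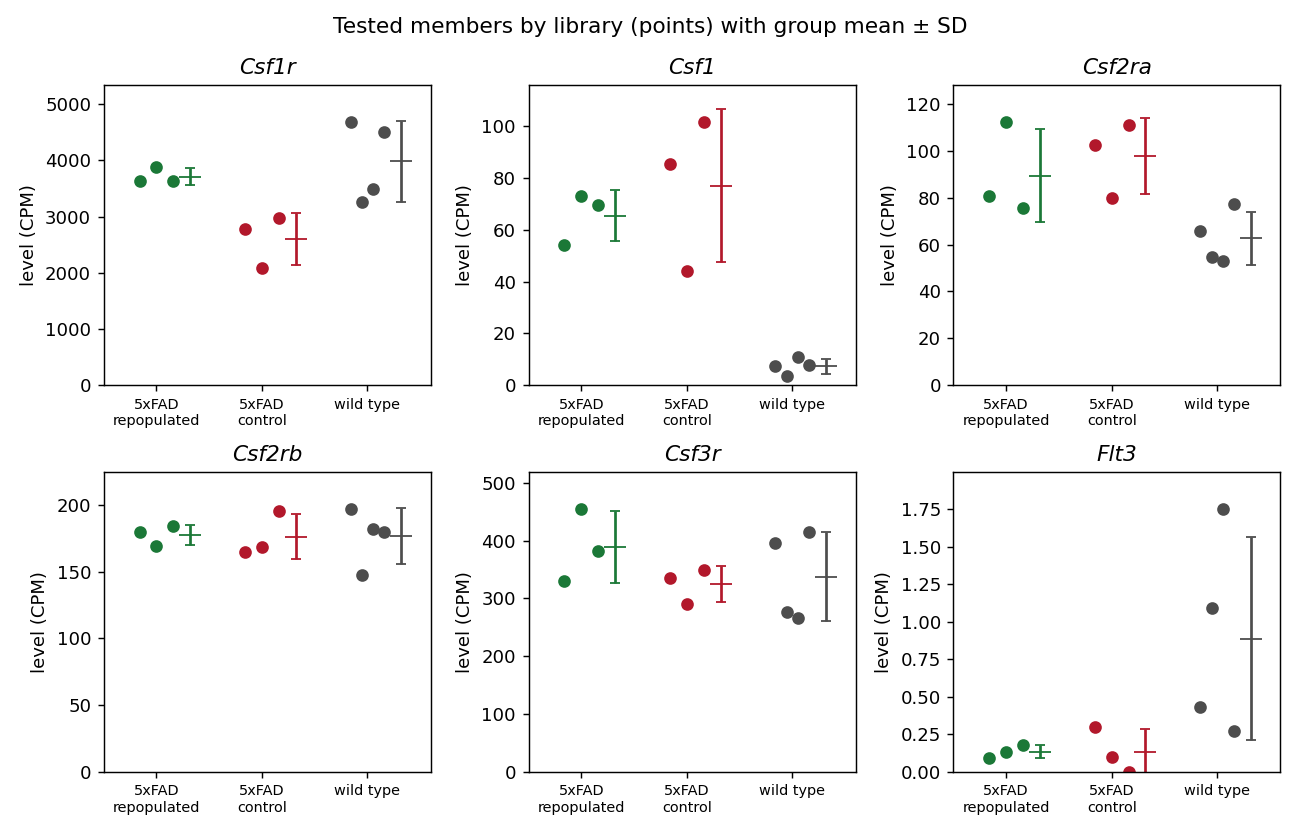
Level of the 6 tested members in CPM (linear axes from 0) in each library (points) of the repopulated 5xFAD, control 5xFAD and wild-type groups, with the group mean and SD beside them. Csf1r is lowest in the 3 control libraries, and Csf1 in the 6 5xFAD libraries lies above 44 CPM against at most 10.6 CPM in wild type.

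Csf1r, the drug's main target, was lowest in control 5xFAD microglia. Its level was 3632, 3885 and 3627 CPM in repopulated libraries, 2773, 2085 and 2967 CPM in control libraries, and 4678, 3252, 3494 and 4511 CPM in WT libraries. Every control library lay below every library of the other groups, while the repopulated values lay inside the WT range. In control against WT libraries Csf1r fell by 0.61 on the log2 scale (SE 0.17, edgeR adjusted p = 0.0239), or 34.5% lower. Repopulated libraries stood 0.51 above control libraries on the log2 scale (SE 0.18, 95% interval 0.12 to 0.90), with an unadjusted p of 0.014 but an adjusted p of 0.166, and all 3 lay above all 3. DESeq2 gave this last difference an adjusted p of 0.0436, and the adjusted p ran from 0.0436 to 0.476 over 22 alternatives. Repopulated against WT libraries differed by -0.10 (95% interval -0.47 to 0.26, edgeR adjusted p = 0.863), an interval of 0.724 to 1.20 as a fold.

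The fall of Csf1r in control libraries kept its direction in 22 of 22 alternatives and its call in 15. The call ended without WT replicate 1 (adjusted p = 0.0634), WT replicate 4 (0.067), control replicate 1 (0.0649) or control replicate 2 (0.0857), with only the 2 groups fitted (0.0584), with the replicate number as a block (0.0753) and with Y-linked status as a term (0.0711). Without the 3 libraries low in Y-linked transcripts the change was -1.01 on the log2 scale. That value rests on control replicate 2, the only control library left and the one with the lowest Csf1r of all (2085 CPM). Without that library alone the change was -0.47. Other microglial genes moved the same way: 5 of the 10 microglial markers fell and 0 rose in control against WT libraries, among them Tmem119, a microglial membrane protein, at -1.29 on the log2 scale. In repopulated against control libraries 1 of the 10 rose and 0 fell, and that 1 was Tmem119 (log2 0.88, edgeR adjusted p = 0.0468). With the 3 libraries low in Y-linked transcripts left out, these Tmem119 differences were -1.59 and 1.12 on the log2 scale. The only control library left there, replicate 2, had the lowest Tmem119 (547 CPM). In control against WT libraries Cx3cr1 was at -0.87 in that setting. P2ry12, Sall1 and P2ry13 were at -0.47, -0.48 and -0.59, and their calls ended. In these pooled cells, fewer cells of a type and less RNA per cell cannot be told apart. The spread between replicates was 3.98% of the mean in repopulated, 17.8% in control and 17.95% in WT libraries.

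The genes whose log2 level followed Csf1r most closely over the 10 libraries were Unc93b1, which carries Toll-like receptors to endosomes, with Pearson r = 0.99, followed by Dnm2, an endocytic dynamin GTPase, Cyth4, a cytohesin that activates ARF GTPases, and Tmem259, each at 0.98. After subtraction of the group means the r values of these 4 genes were 0.98, 0.96, 0.96 and 0.95. The genes were picked for their r over these same libraries, which include the differences among replicates. The r values after subtraction are therefore no separate evidence of likeness. Unc93b1, for example, averaged 434 CPM in repopulated, 251 CPM in control and 517 CPM in WT libraries. These coefficients are descriptions over libraries that share 1 scaling.

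Csf1, the ligand, was the member that differed most from WT, and it did so in both 5xFAD groups. Its level was 54.1, 72.8 and 69.5 CPM in repopulated libraries, 85.3, 44.1 and 101.5 CPM in control libraries, and 7.38, 3.42, 10.6 and 7.68 CPM in WT libraries. All 6 5xFAD libraries lay above all 4 WT libraries, and the repopulated and control ranges overlapped. In control against WT libraries Csf1 rose 10.6-fold (95% interval 6.47 to 17.3, log2 3.40, SE 0.33, edgeR adjusted p = 1.2e-05). In repopulated against WT libraries it rose 8.99-fold (95% interval 5.52 to 14.6, log2 3.17, SE 0.33, edgeR adjusted p = 3.98e-05). Both calls held in 22 of 22 alternatives.

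Without the 3 libraries low in Y-linked transcripts the Csf1 difference in control against WT libraries was 2.37 on the log2 scale (adjusted p = 0.000499), and in repopulated against WT libraries it was 2.95. Between the 5xFAD groups the log2 difference was -0.23 (repopulated minus control, 95% interval -0.94 to 0.47, edgeR adjusted p = 0.754). That sign turned to 0.02 without control replicate 3 and to 0.58 without the 3 libraries low in Y-linked transcripts, neither with an adjusted p below 0.05. The genes closest to Csf1 over the 10 libraries were Il4i1, an L-amino acid oxidase, and Apoe, the apolipoprotein E gene, with Pearson r of 0.99 each and 0.97 and 0.93 after subtraction of group means. Apoe averaged 10155 CPM in repopulated, 14310 CPM in control and 1026 CPM in WT libraries.

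Setting ligand against receptor within a library separated all groups. Csf1 amounted to 1.94, 2.41 and 2.48 TPM per 100 TPM of Csf1r in repopulated libraries, to 4.37, 2.99 and 4.55 in control libraries, and to 0.199, 0.115, 0.381 and 0.182 in WT libraries. No range of one group overlapped that of another, with repopulated libraries between control and WT libraries. Csf3r per 100 TPM of Csf1r was 13.9, 17.5 and 16.1 TPM in repopulated libraries, 18.5, 21.9 and 18.01 TPM in control libraries, and 12.4, 12.9, 10.9 and 13.5 TPM in WT libraries. By TPM no ranges overlapped here too, and the repopulated libraries again lay between the others, with narrow gaps. By estimated counts the WT and repopulated ranges of this ratio overlapped. WT replicate 4 had 9222 counts of Csf3r to 100393 of Csf1r. That is a higher ratio than the 7358 to 80782 of repopulated replicate 1. These ratios combine members whose separate tests are given, and no test was made of the ratios themselves.

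**Figure D2:**
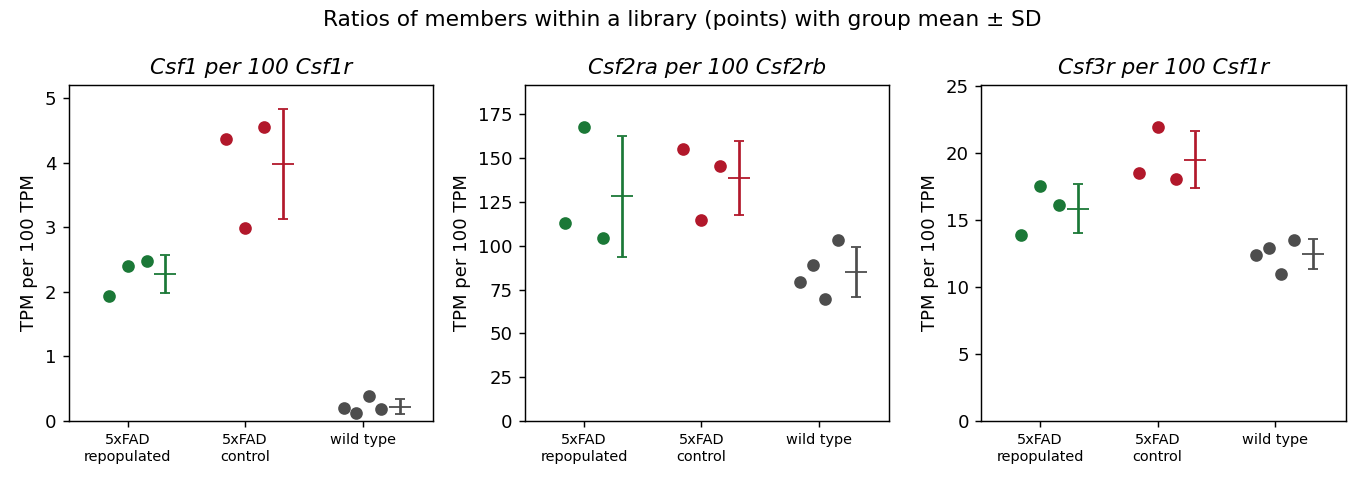
TPM of one member per 100 TPM of another within each library (points; linear axes from 0), with group mean and SD, for Csf1 to Csf1r, Csf2ra to Csf2rb and Csf3r to Csf1r. By TPM the repopulated libraries lie between control and wild-type libraries in the first and last ratio. Csf2ra to Csf2rb lies above 104 in every 5xFAD library against 103 in the highest wild-type library. By estimated counts the wild-type and repopulated ranges of Csf2ra to Csf2rb and of Csf3r to Csf1r overlap.

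Il34, the other ligand, gave almost no reads in these sorted cells. It had 0 estimated counts in all 3 repopulated libraries, 0, 0 and 1 in control libraries, and 0, 0, 0 and 2 in WT libraries. A pooled count of 0 allows up to 0.0443 CPM in repopulated libraries (3 counts over the group, counting error only). No group therefore differed detectably from another at this depth. The summed level of 11 neuronal markers was 5.08 to 10.8 CPM in repopulated, 3.94 to 9.22 CPM in control and 11.3 to 64.9 CPM in WT libraries. The highest of these values was that of WT replicate 3, and the other WT libraries lay at 11.3 to 13.3 CPM. WT replicate 3 also had the highest sums of astrocyte markers (561 CPM, against 223 to 315 CPM in the other 9 libraries) and erythrocyte markers (281 CPM, against at most 20.7 CPM).

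Kit was likewise at the limit of detection. It had 2, 1 and 1 counts in repopulated libraries, 0 in all 3 control libraries, and 0, 1, 1 and 0 in WT libraries, so the repopulated libraries were the only group with a count in every library. The 0 of the control group allows up to 0.0489 CPM. In a fit without the count filter, over 18682 genes, repopulated against control libraries had an edgeR adjusted p of 0.461. Mast cells carry KIT, and of 10 mast cell and basophil markers listed, 6 were in the table, with sums of 0.177 to 1.35 CPM in repopulated, 0 to 0.252 CPM in control and 0.522 to 1.11 CPM in WT libraries. The high-affinity IgE receptor gene Fcer1a was at 0 in all 10 libraries.

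Flt3 was low throughout and passed the test in no comparison. Its estimated counts were 2, 3 and 4 in repopulated libraries, 6.01, 2 and 0 in control libraries, and 9, 23, 36 and 6 in WT libraries. All repopulated libraries lay below all WT libraries by CPM, and 1 control library overlapped WT. The highest count was that of WT replicate 3, the library with the high neuronal, astrocyte and erythrocyte sums. The log2 difference was -2.70 in control against WT libraries (SE 1.12, edgeR adjusted p = 0.11) and -2.68 in repopulated against WT libraries (SE 1.10, edgeR adjusted p = 0.247), and neither was called. Between the 5xFAD groups the interval ran from -2.53 to 2.56, too wide to show a difference at this depth.

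FLT3 is a receptor of dendritic cells, whose 10 listed markers summed to 22.6 to 25.4 CPM in repopulated, 38.2 to 85.5 CPM in control and 41.5 to 62.0 CPM in WT libraries. The control sums rested largely on Cd209a, a C-type lectin, which averaged 4.18 CPM in repopulated, 37.1 CPM in control and 18.7 CPM in WT libraries. Siglecg, a sialic acid-binding lectin, was lower in both 5xFAD groups. It averaged 4.84 CPM in repopulated, 3.23 CPM in control and 11.7 CPM in WT libraries. Zbtb46, a transcription factor, averaged 6.22, 5.68 and 7.74 CPM in the same groups. Clec9a was higher in both 5xFAD groups, at 1.85 CPM in repopulated, 2.21 CPM in control and 0.498 CPM in WT libraries. It was not called (edgeR adjusted p = 0.055 in control and 0.212 in repopulated against WT libraries). Xcr1, Clec10a and Ifi205 averaged highest in control libraries and Itgae highest in WT libraries, also with no call.

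Of the 8 dendritic markers tested, Cd209a fell in repopulated against control libraries (log2 -3.15, edgeR adjusted p = 0.0351) and in repopulated against WT libraries (log2 -2.16, edgeR adjusted p = 0.0374). Siglecg fell in control against WT libraries (log2 -1.86, edgeR adjusted p = 0.000496) and in repopulated against WT libraries (log2 -1.27, edgeR adjusted p = 0.0168). Without the 3 libraries low in Y-linked transcripts the Cd209a calls held (adjusted p = 0.0117 and 0.031) and the Siglecg calls ended (0.0869 and 0.0721). The chemokine receptor gene Ccr7 was at 0 in 8 of 10 libraries and at most 0.27 CPM in the others. The part of such cells in the Flt3 counts was not tested. The closest genes to Flt3 were Cav2, a caveolin, and Sez6l, with Pearson r of 0.94 each over the 10 libraries and 0.86 and 0.88 within groups.

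**Figure D3:**
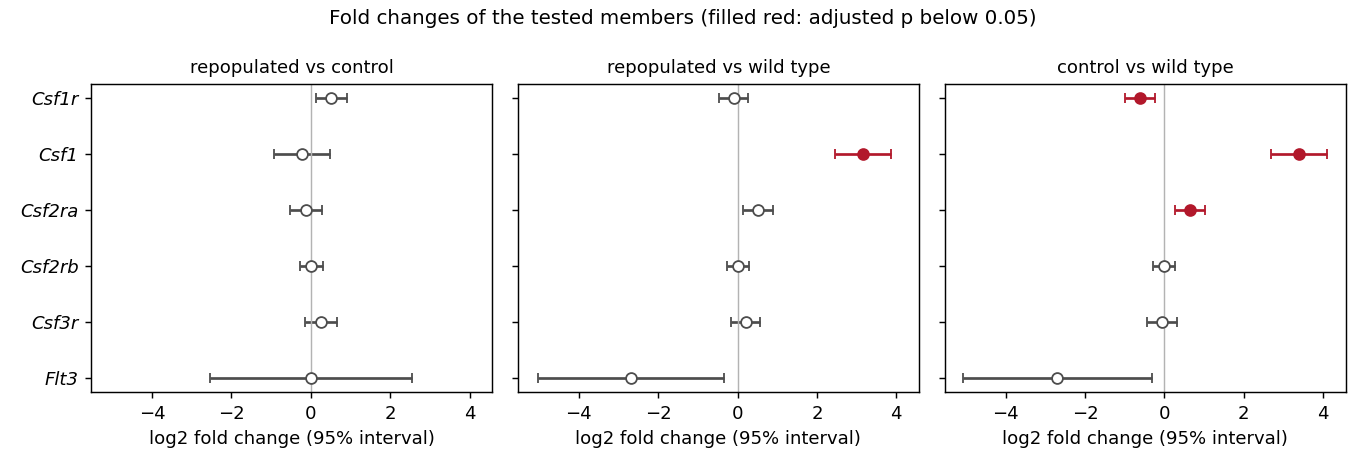
Log2 fold change (points) with 95% interval (bars) of the 6 tested members for repopulated against control, repopulated against wild type and control against wild type, on 1 shared axis; filled red points have an adjusted p below 0.05. Csf1 lies near 3 in both comparisons with wild type, Csf2rb lies at 0 with narrow intervals in all 3 comparisons, and the Flt3 intervals are the widest.

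Csf2ra, the ligand-binding chain of the GM-CSF receptor, was higher in control 5xFAD than in WT libraries. Its level was 80.7, 112.3 and 75.5 CPM in repopulated libraries, 102.6, 79.8 and 111.1 CPM in control libraries, and 65.7, 54.8, 53.0 and 77.3 CPM in WT libraries. Every control library lay above every WT library, and 1 repopulated library lay inside the WT range. In control against WT libraries Csf2ra rose 1.56-fold (95% interval 1.20 to 2.03, log2 0.64, SE 0.18, edgeR adjusted p = 0.0213). The difference was 0.51 in repopulated against WT libraries (SE 0.18, edgeR adjusted p = 0.148) and -0.13 in repopulated against control libraries (95% interval -0.53 to 0.28, edgeR adjusted p = 0.764).

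The Csf2ra call held in 17 of 22 alternatives. It ended without WT replicate 2 (adjusted p = 0.052), control replicate 1 (0.0832) or control replicate 3 (0.0902), which are the 3 libraries low in Y-linked transcripts, and with Y-linked status as a term (0.081). Without all 3 the difference was 0.30 on the log2 scale with an adjusted p of 0.526, and the difference between repopulated and control libraries turned to 0.17. The closest genes over the 10 libraries were Sp110, an interferon-induced nuclear body protein (Pearson r = 0.95, 0.89 within groups), and H2-Q7, a class Ib histocompatibility gene (0.94, 0.86 within groups). The mouse H2-Q genes are near copies of each other, so the H2-Q7 counts are uncertain.

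Csf2rb, the signalling chain that GM-CSF, IL-3 and IL-5 receptors share, was level across the groups. It stood at 179, 169 and 184 CPM in repopulated libraries, 165, 169 and 195 CPM in control libraries, and 197, 147, 182 and 180 CPM in WT libraries. The 3 ranges overlapped, and all 3 log2 differences lay within 0.02 of 0. The 95% interval was -0.27 to 0.27 in control against WT, -0.28 to 0.30 in repopulated against control and -0.26 to 0.28 in repopulated against WT libraries, with edgeR adjusted p-values of 0.995, 0.978 and 0.988. Csf2ra per 100 TPM of Csf2rb was 113, 168 and 104 TPM in repopulated, 155, 115 and 146 TPM in control, and 79.3, 88.9, 69.6 and 103 TPM in WT libraries. By TPM the highest WT library thus lay just under the lowest 5xFAD library, and the ratio was not tested. By estimated counts these libraries changed order. WT replicate 4 had 1721 counts of Csf2ra to 4006 of Csf2rb, and repopulated replicate 3 had 1708 to 4171.

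Csf2rb has a near-identical neighbour on chromosome 15, Csf2rb2, which in mice encodes a beta chain used by the IL-3 receptor. Their coding sequences were 95.2% identical over 2628 aligned bases, with an unbroken identical run of 242 bases, and 26.0% of all windows of 50 bases in one also occurred in the other. A stretch of 120 coding bases from each is shown, because reads from such stretches can be assigned to either gene. Capitals mark the 6 bases that differ, both are given 5′ to 3′ on the coding strand, and both come from the GENCODE transcripts of GRCm38. The Csf2rb stretch lies at chr15:78340480-78340599 on the plus strand and the Csf2rb2 stretch at chr15:78292710-78292829 on the minus strand.
Csf2rb: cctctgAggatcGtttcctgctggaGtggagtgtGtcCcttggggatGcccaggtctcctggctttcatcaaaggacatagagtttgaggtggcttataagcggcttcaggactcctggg
Csf2rb2: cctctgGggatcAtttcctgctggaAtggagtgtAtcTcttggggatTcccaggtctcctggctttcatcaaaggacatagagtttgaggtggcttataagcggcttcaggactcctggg
All 6 differences fall in the first part of the stretch, and the rest is identical in both genes. The deposited counts of both genes had decimals in 10 of 10 libraries, and their sum was whole, within 0.015, in 7 of 10. Csf2rb held 78.7% to 82.0% of the reads of both in repopulated, 76.0% to 83.4% in control and 72.8% to 85.3% in WT libraries. Csf2rb2 itself stood at 44.1 ± 3.09 CPM in repopulated, 43.0 ± 9.06 CPM in control and 46.5 ± 18.5 CPM in WT libraries (SD, n = 3, 3 and 4), with no call. The split between the genes is uncertain. The Csf2rb differences lay near 0, and their sign turned in 14 of 23 alternatives in control against WT libraries. It turned in 7 in repopulated against control and in 8 in repopulated against WT libraries. The deposited counts of Csf2ra also had decimals in 10 of 10 libraries and those of Csf3r in 9 of 10. No gene searched gave a whole sum with Csf2ra in more than 2 of 10 libraries or with Csf3r in more than 4. Read assignment is thus uncertain in part for these members too.

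Csf3r, the G-CSF receptor gene, did not pass the test in any comparison. It stood at 331, 454 and 382 CPM in repopulated libraries, 335, 291 and 349 CPM in control libraries, and 395, 276, 266 and 414 CPM in WT libraries. The 3 ranges overlapped. The log2 difference was -0.06 in control against WT (95% interval -0.43 to 0.32), 0.26 in repopulated against control (-0.14 to 0.66) and 0.20 in repopulated against WT libraries (-0.17 to 0.57), with edgeR adjusted p-values of 0.857, 0.486 and 0.673. The control against WT difference, near 0, turned positive in 5 of 22 alternatives.

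Neutrophils also carry this receptor, and 14 neutrophil markers summed to 73.7 to 185 CPM in repopulated, 29.3 to 355 CPM in control and 39.5 to 271 CPM in WT libraries. The library with the highest sum had the highest Csf3r of its group in the repopulated group (replicate 2) and the lowest in the control group (replicate 2) and the WT group (replicate 3). The part of neutrophils in the Csf3r levels was not tested. The genes closest to Csf3r were Chd4, a chromatin remodeller (Pearson r = 0.95 over the 10 libraries, 0.96 within groups), and Lman2l, a lectin of the secretory pathway (0.94, 0.94 within groups). For Csf2rb they were Ppp1r3f, a glycogen-targeting phosphatase subunit (0.91, 0.91 within groups), and Ipo8, an importin (0.89, 0.90 within groups).

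Promoter windows of 250 bases before an annotated RefSeq start were on hand for 5 of the 8 members, Csf1, Kit, Flt3, Csf2ra and Csf3r. The windows of Csf1 and Csf2ra are shown because these members rose in control against WT libraries. Both are on GRCm38.p6, 5′ to 3′ on the strand of the gene, with Csf1 at chr3:107760470-107760719 and Csf2ra at chr19:61228419-61228668, both on the minus strand. Capitals mark matches to GAGGAAG, a purine-rich core like those bound by ETS factors such as PU.1, searched on both strands.
Csf1: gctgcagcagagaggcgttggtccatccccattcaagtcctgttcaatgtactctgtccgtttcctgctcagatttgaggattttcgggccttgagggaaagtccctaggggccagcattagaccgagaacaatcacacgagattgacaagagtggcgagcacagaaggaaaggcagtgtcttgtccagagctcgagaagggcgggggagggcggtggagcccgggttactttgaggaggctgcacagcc
Csf2ra: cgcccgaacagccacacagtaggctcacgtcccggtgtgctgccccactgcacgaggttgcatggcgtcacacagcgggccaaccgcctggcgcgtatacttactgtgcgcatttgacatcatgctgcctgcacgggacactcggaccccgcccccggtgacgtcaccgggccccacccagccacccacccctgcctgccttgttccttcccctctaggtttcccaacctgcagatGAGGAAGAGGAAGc
The Csf2ra window held GAGGAAG in a pair of matches that overlap by 1 base, 14 to 8 and 8 to 2 bases before the start, and the Csf1 window held none. Csf3r held 1 match, 86 to 80 bases before its start, Kit held 1 and Flt3 none. The starts used for Csf2ra and Csf3r lie inside the annotated genes. Csf2ra spans chr19:61217191-61228461, so the end of its window, with both matches, is within the gene. Csf3r begins at chr4:126023441, so its whole window, chr4:126024409-126024658, is within the gene. GAGGAAG occurred in 10.6% of 32851 windows of the same length. TGANTCA, an AP-1 core, occurred in 6.75% of them and in none of the windows of the 5 members, so the motifs did not overlap there. A match is a description of the sequence, and bound factors were not measured.

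The pathway around the receptors was followed in 6 gene lists, and in repopulated against control libraries edgeR called 0 genes in all 6. At an unadjusted p below 0.05 there were 2 of 8 other ligands and receptors, 11 of 40 proximal signalling genes, 6 of 23 turnover genes and negative regulators, 5 of 14 JAK-STAT genes, 5 of 28 transcription factors and 5 of 21 Bcl-2 family and caspase genes, where all genes tested gave 18.5%. DESeq2 called 1, 3, 3, 0, 1 and 2 of them, where it called 9.42% of the 7409 genes left in its adjustment. With limma-voom 0 were called in each list. With the 3 libraries low in Y-linked transcripts left out, a setting with 1 control library, the edgeR counts changed in some lists. They stayed the same for other ligands and receptors and for JAK-STAT genes.

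Among ligands and receptors of the related CSF, KIT and FLT3 families, 3 of 8 tested genes rose and 0 fell in control against WT libraries, where 18.1% of all genes tested were called in either direction, with a list median of 0.00 on the log2 scale against -0.06 over all genes. Pdgfa, a platelet-derived growth factor chain, averaged 56.4 ± 5.09 CPM in control and 28.5 ± 2.57 CPM in WT libraries (SD, n = 3 and 4), 1.98-fold higher. Il3ra, the ligand-binding chain of the IL-3 receptor and partner of Csf2rb, averaged 1.71 ± 0.955 CPM in control and 0.164 ± 0.224 CPM in WT libraries, and Pdgfc averaged 3.27 ± 1.66 CPM in control and 0.893 ± 0.749 CPM in WT libraries. These last genes were low, and their calls ended in 10 and 13 alternatives. The Il3ra call ended without WT replicate 4, control replicate 1 or 3, or any of the 3 repopulated libraries (adjusted p 0.0502 to 0.132), and the Pdgfc call ended without any 1 library other than WT replicate 3 or control replicate 2 (0.0635 to 0.173). In repopulated against WT libraries 0 of 8 were called, with 3 at an unadjusted p below 0.05, where all genes tested gave 15.1%, 1 by DESeq2 and 0 by limma-voom. Without the 3 libraries low in Y-linked transcripts the control against WT log2 differences were 1.11 for Pdgfa, 3.85 for Il3ra and 0.43 for Pdgfc. The Il3ra and Pdgfc calls ended there. The ligand genes Csf2, Csf3 and Il3 were not analysed here.

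Of 40 proximal signalling genes of CSF1R, 6 rose and 7 fell in control against WT libraries (median -0.21), where 18.1% of all genes were called. Against WT, 3 rose and 0 fell in repopulated libraries (median 0.02), where 4.18% of all genes were called. Tyrobp, the adaptor DAP12 through which CSF1R and TREM2 signal, averaged 1842 ± 107 CPM in repopulated, 1786 ± 493 CPM in control and 717 ± 122 CPM in WT libraries. It rose 2.57-fold in repopulated and 2.49-fold in control against WT libraries (edgeR adjusted p = 0.000375 and 0.000223). The Src-family kinase gene Fyn rose with it, 2.55-fold in repopulated and 2.33-fold in control against WT libraries. Syk, the kinase that docks on DAP12, fell in control against WT libraries, at 60.2 ± 3.51 CPM in control and 108 ± 27.0 CPM in WT libraries (log2 -0.84, edgeR adjusted p = 0.0055). Without the 3 libraries low in Y-linked transcripts the control calls of Tyrobp, Fyn and Syk ended, at log2 differences of 0.78, 0.70 and -0.96. In repopulated against WT libraries the differences in that setting were 1.38 for Tyrobp and 1.36 for Fyn.

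Of 23 genes of CSF1R turnover and negative regulation, 2 rose and 6 fell in control against WT libraries (median -0.15), where 18.1% of all genes were called. Against WT, 1 rose and 0 fell in repopulated libraries (median -0.02), where 4.18% of all genes were called. Dok3, an inhibitory docking protein, averaged 6.14 ± 1.19 CPM in control and 24.1 ± 9.76 CPM in WT libraries, a log2 change of -1.97 (edgeR adjusted p = 0.000356). Socs2, a suppressor of cytokine signalling, averaged 7.29 ± 1.05 CPM in repopulated, 10.1 ± 2.66 CPM in control and 1.92 ± 1.15 CPM in WT libraries, 3.79-fold higher in repopulated and 5.26-fold higher in control than in WT. Sh2b3, the adaptor LNK, fell in control against WT libraries (log2 -0.67), and Spred2, an inhibitor of RAS and ERK signalling, rose 1.48-fold. The control count without the 3 libraries low in Y-linked transcripts was 3 and the repopulated against WT count 0. The control calls of Socs2 (adjusted p = 0.152) and Sh2b3 (0.231) and the Socs2 call in repopulated against WT libraries (0.164) ended, while the control calls of Dok3 (0.0167) and Spred2 (0.0178) held. The Sh2b3 call also ended without control replicate 1 (0.0545) and with GC and length correction, where the log2 change was -0.38 (0.104), the Spred2 call without control replicate 2 (0.0502), and the Socs2 call in repopulated against WT libraries without WT replicate 2 or any 1 repopulated library (0.0651 to 0.11) and with only the 2 groups fitted (0.0791).

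Of 14 JAK-STAT genes of the CSF2 and CSF3 receptors, 0 rose and 2 fell in control against WT libraries (median -0.42), a share of 14.3% where 18.1% of all genes were called. They were Irf4, a transcription factor, at 2.77 ± 1.26 CPM in control and 7.83 ± 1.33 CPM in WT libraries, and Stat3, the main STAT of the G-CSF receptor, at 59.1 ± 9.83 CPM in control and 99.0 ± 21.3 CPM in WT libraries (edgeR adjusted p = 0.00823 and 0.00899). Without the 3 libraries low in Y-linked transcripts Irf4 was at -2.15 on the log2 scale, against -1.50 with all libraries, and Stat3 at -1.09. With Y-linked status as a term the Stat3 call ended (adjusted p = 0.0534). Against WT, 1 fell and 0 rose in repopulated libraries (median -0.03), where 4.18% of all genes were called. It was the kinase gene Pim1, at 15.2 ± 3.97 CPM in repopulated and 27.6 ± 3.20 CPM in WT libraries. The Pim1 call ended in 10 alternatives, among them without any 1 WT library, control replicate 3, or repopulated replicate 2 or 3 (adjusted p 0.0529 to 0.228) and without the 3 libraries low in Y-linked transcripts (0.0854).

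Of 28 transcription factors of Csf1r and other myeloid receptor genes, 3 rose and 5 fell in control against WT libraries (median -0.06), where 18.1% of all genes were called. Against WT, 2 rose and 0 fell in repopulated libraries (median -0.02), where 4.18% of all genes were called. Egr1, an immediate early factor induced by CSF1, averaged 8.17 ± 2.25 CPM in repopulated, 8.08 ± 1.65 CPM in control and 2.72 ± 0.363 CPM in WT libraries, 3.0-fold and 2.96-fold higher than in WT (edgeR adjusted p = 0.00319 and 0.00134). Egr2 rose 10.2-fold in control against WT libraries, and Ets2 rose 1.94-fold in repopulated against WT libraries. Sall1, a factor of microglial identity, and Batf3, a factor of dendritic cells, fell in control against WT libraries by 0.62 and 0.80 on the log2 scale. Without the 3 libraries low in Y-linked transcripts the control calls of Egr2, Sall1 and Batf3 ended, at log2 3.11, -0.48 and -0.73. The Ets2 call in repopulated against WT libraries ended there too, at log2 0.86. Egr1 was then at 1.63 in control and 1.60 in repopulated against WT libraries. The Sall1 call also ended without control replicate 1 (adjusted p = 0.0558) and the Ets2 call without repopulated replicate 1 (adjusted p = 0.0592).

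Of 21 genes of the Bcl-2 family and caspases, through which loss of survival signals leads to cell death, 5 rose and 4 fell in control against WT libraries (median -0.13), where 18.1% of all genes were called. Against WT, 3 rose and 0 fell in repopulated libraries (median 0.08), where 4.18% of all genes were called. Bcl2, which blocks apoptosis, averaged 15.1 ± 4.02 CPM in repopulated, 26.2 ± 6.08 CPM in control and 5.65 ± 1.83 CPM in WT libraries, 2.68-fold and 4.64-fold higher than in WT (edgeR adjusted p = 0.00867 and 9.86e-05). Pmaip1, which encodes the death-promoting NOXA, averaged 15.9 ± 1.40, 14.1 ± 1.78 and 5.25 ± 1.86 CPM in the same groups, 3.02-fold and 2.68-fold higher than in WT. Bcl2a1b and Bcl2a1d rose 1.83-fold and 2.02-fold in control against WT libraries, and since the Bcl2a1 genes are near-identical copies their separate counts are uncertain. Bax, a pore-forming death effector, rose 1.45-fold in repopulated against WT libraries, a call that ended in 12 alternatives, among them without WT replicate 1, 2 or 4, control replicate 1 or any 1 repopulated library (adjusted p 0.0699 to 0.194), and the Bcl2 call there ended without repopulated replicate 3 (0.0667). Without the 3 libraries low in Y-linked transcripts, Bcl2 was at log2 1.89 and Pmaip1 at 1.63 in control against WT libraries. Bcl2a1b was at 1.08 and Bcl2a1d at 1.15 in that comparison. In repopulated against WT libraries Bcl2 was at 1.51 and Pmaip1 at 1.745, and the Bax call ended, at log2 0.50.

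**Figure D4:**
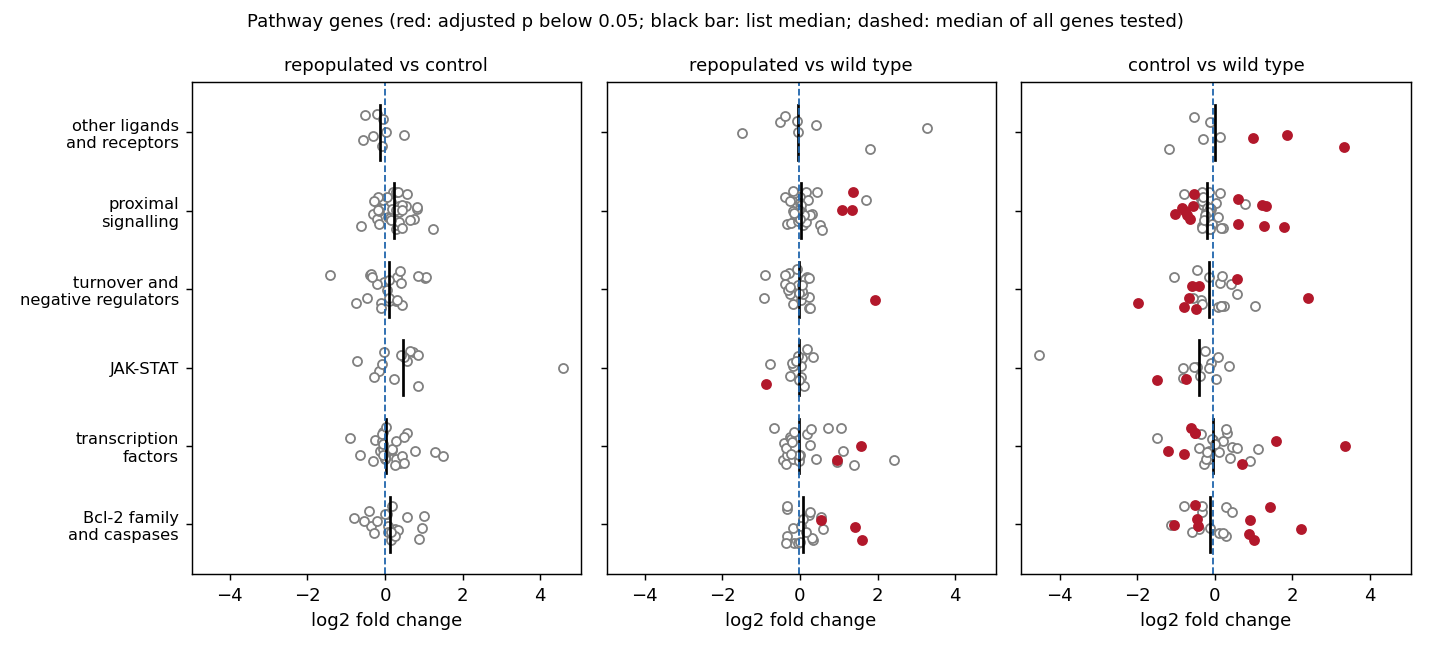
Log2 fold change of each tested gene (points) in the 6 pathway lists for repopulated against control, repopulated against wild type and control against wild type; red points have an adjusted p below 0.05, black bars mark the list median and the dashed line the median of all 12505 genes tested. Red points are absent in the first panel and lie on both sides of 0 in the last.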

How the data were processed

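The authors deposited 1 table with estimated (expected) counts, FPKM and TPM for 19782 genes in 10 libraries. Per the submitters' processing notes, HISAT and Bowtie2 were used with GRCm38.p6; the sources used here give neither their roles and versions nor the counting tool. The deposited expected counts were rounded, filtered with filterByExpr (12505 genes left), scaled by TMM and fitted with edgeR 4.0.16 (robust quasi-likelihood, 1 model of 3 groups, no covariate, prior count 0.125) in R 4.3.3, with Benjamini-Hochberg adjustment. The biological coefficient of variation was 27.3%. CPM are TMM-scaled, the deposited TPM were used as given for levels between genes, and the deposited FPKM were not tested.

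The members and gene lists were chosen with earlier results of these data known. Text names the 8 members, up to 4 called genes of smallest p per list and comparison, and the genes with the highest correlation of log2 CPM (prior count 2); some items chosen by these rules are not reported here. Replicate pairs differed by more than counting noise. The fit was tested on simulated data. Alternatives were other scaling, tests (DESeq2 1.42.0, limma-voom 3.58.1), filters (none, or 5 CPM in 3 libraries), prior count 0.5, a replicate block, omission of each library in turn, the 2 groups alone, Y-linked status as a term, the 3 libraries low in Y-linked transcripts left out and, chosen after seeing the data, a GC and length correction and summed Csf2rb and Csf2rb2. Smart-Seq libraries carry no molecular identifiers, so floors cover counting error only.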

Additional observations from a re-analysis of the deposited data

How the results depend on the processing

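For the 31 pathway gene values chosen by the naming rule, 613 of 680 recomputed values kept direction and call, 67 kept direction only and 0 turned. Genes called numbered 2265 (control against WT), 71 (repopulated against control) and 523 (repopulated against WT). Leaving out 1 library gave 1315 to 2910, 0 to 328 and 284 to 688, and leaving out the 3 libraries low in Y-linked transcripts gave 1202, 388 and 289. For repopulated against control libraries the count was 698 with DESeq2, 125 with limma-voom, 166 with no filter, 125 with the filter at 5 CPM in 3 libraries, 630 with only the 2 groups and 1 with Y-linked status as a term. Members called in control against WT libraries numbered 1 to 3 on leaving out 1 library and 1 with Y-linked status as a term, and in repopulated against control libraries 1 with DESeq2. Over all alternatives, the calls in control against WT libraries ran from 1 to 4 (other ligands and receptors), 3 to 16 (proximal signalling), 3 to 10 (turnover), 1 to 4 (JAK-STAT), 3 to 8 (transcription factors) and 5 to 10 (Bcl-2 family). In repopulated against control libraries those lists ran from 0 to at most 4, and in repopulated against WT libraries they ran from 0 to 1, 3 to 4, 0 to 3, 0 to 1, 1 to 4 and 1 to 4. The cause of these changes was not tested.

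Same-numbered replicates showed no shared deviation (r from -0.105 to 0.071). With so few pairs this cannot exclude that samples were paired, and the labels do not say. With the replicate block, genes called were 1464 in control against WT and 25 in repopulated against control libraries, and the Csf1r fall had an adjusted p of 0.0753. The block turned Csf2rb to 0.0125 and Csf3r to 0.0668 in control against WT and Flt3 to -0.0147 in repopulated against control libraries.

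The other turned signs were of log2 differences that passed no test. Csf2rb in control against WT libraries was 0.0215 with DESeq2 size factors, 0.0215 with DESeq2, 0.0021 with limma-voom, 0.00694 with no filter, 0.0617 with Y-linked status as a term and 0.157 with GC and length correction. Csf3r there was 0.0984 with GC and length correction. In repopulated against control libraries Csf2rb was -0.011 with DESeq2 size factors and with DESeq2, -0.0818 with Y-linked status as a term and -0.209 with GC and length correction. Flt3 there was -0.00689 with DESeq2 size factors, -0.00934 with DESeq2 and -0.109 with GC and length correction. Without the 3 libraries low in Y-linked transcripts Csf1 was 0.576 and Csf2ra 0.171. In repopulated against WT libraries Csf2rb was -0.00366 with upper-quartile scaling, -0.00164 with the filter at 5 CPM, -0.0201 with Y-linked status as a term, -0.0526 without the 3 libraries, -0.0517 with GC and length correction and -0.00889 when summed with Csf2rb2. On leaving out 1 library, Csf2rb ranged from -0.0802 to 0.0615 in control against WT, from -0.0357 to 0.0907 in repopulated against control and from -0.0688 to 0.0766 in repopulated against WT libraries. Csf3r ranged from -0.155 to 0.0566 in control against WT, and in repopulated against control libraries Flt3 ranged from -0.56 to 1.33, Csf1 from -0.513 to 0.0167 and Csf2ra from -0.326 to -0.0199.

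Flt3 gave no value with 5 CPM in 3 libraries and in some fits where fewer libraries left it under the filter. With 3 or 4 libraries a group, differences within the intervals given were not resolved.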

Other observations

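Pathway genes under the count filter carried few reads, and the genes given here were picked after their values were seen. Vav3, a guanine nucleotide exchange factor, had 1 estimated count over the repopulated group, 38 over the control group and 1 over the WT group, and a single library held 29 of the 38. Spry4, a feedback inhibitor of ERK signalling, had 18 estimated counts over the repopulated group, 7 over the control group and 0 over the WT group. Hrk, a death-promoting BH3-only gene, had 1 count over the repopulated group, 4 over the control group and 29 over the WT group. Cish, a STAT5 target and cytokine signalling inhibitor, had 7 counts over the repopulated group, 1 over the control group and 26 over the WT group. Gfi1 had 0 counts in all libraries. None of these genes was tested.

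Between members, the correlation of log2 levels over the 10 libraries differed from that after subtraction of group means. For Csf1r and Csf1 it was -0.42 over all 10 libraries and 0.64 within groups, and for Csf1r and Csf2ra it was -0.21 and 0.80. For Csf1r and Csf3r it was 0.59 and 0.85. All libraries share 1 scaling, and these coefficients are descriptions.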
